A study of Homo sapiens with 3 samples.

Results

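Antisense RNAs are transcripts read from the strand opposite a named gene. Those described here are 220 non-coding genes whose symbol ends in -AS and a number, such as PSMG3-AS1, among 12582 genes in a table of RNA changes after knockdown of the RNA-binding protein RBMS1. They were taken by name alone, with SNHG and LINC symbols left out, and they account for 264 of the table's 20104 rows, each row being 1 RefSeq transcript. Each was set beside its partner, the gene named before -AS. The partner was in the table for 176 of them, was not in the table for 39, and for 5 HOX cluster RNAs, such as HOXB-AS1, no gene carries the name before -AS.

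The cells were SW480, an established human colon adenocarcinoma line. In 2 libraries they were transduced with control shRNA, short hairpin RNA not directed at RBMS1 (shControl), and in 1 library with an shRNA against RBMS1 (shRBMS1), and total RNA was taken 48 hours later after removal of ribosomal RNA. The labels do not say whether the controls were made with one hairpin or with different ones. All values per transcript come from the authors' deposited table of log2 fold changes, shRBMS1 over shControl, so 0 is no difference and 1 is a doubling. Where a gene had several rows, their median was used. Levels per library were not analysed here: the depth is unknown, there is no replicate check, and no p-value is given. "Higher" and "lower" describe this single comparison of libraries, and in such bulk RNA fewer cells of a type and less RNA per cell cannot be told apart.

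RBMS1 itself, on chromosome 2 at 160272151 to 160493807 (hg38), was at −1.36 and −1.62 in its rows of the authors' deposited table, and the direction of the ratio was read from it. Of the colon epithelial markers looked for, 7 of 10 were in the table. VIL1 was lowest at −2.33 and KRT18 followed at −1.09, while CDH1, CDX2, EPCAM and KRT19 lay between −0.79 and −0.33 and KRT8 at 0.05 in the authors' deposited table. Of leukocyte markers 1 of 6 was in the table, LYZ at −0.68, and of fibroblast and endothelial markers 0 of 6 and 0 of 5. The part of these shifts in the antisense RNA values was not tested.

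Antisense RNAs arise in several ways. Many start close to the partner's own start and run away from it, from a promoter that fires in both directions. Others cross the partner's body or its end, so that the mature RNAs hold complementary bases. Most are made by RNA polymerase II, spliced and polyadenylated at low levels, and the nuclear exosome removes many of them early. Some act in cis on the neighbouring gene, some bind proteins or microRNAs elsewhere, and for most no function is known. RBMS1 binds A+U-rich RNA, AUAUA among it, and is known for stabilising mRNAs through their 3′ ends.

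Head-to-head pairs that lie apart run away from each other, with a shared stretch between their starts. The stretches below (RefSeq, GRCh38.p14) are read 5′ to 3′ on the antisense RNA's strand, from the partner's start toward the antisense RNA's own, with CG dinucleotides in capitals. They were picked after their values were seen, as a pair that was low together (B3GALT5-AS1, chr21:39612823-39612939, minus strand), a pair at nearly the same value (TRAM2-AS1, chr6:52577061-52577201, plus strand) and a pair with opposite signs and starts almost touching (DDX11-AS1, chr12:31073848-31073859, minus strand).
B3GALT5-AS1: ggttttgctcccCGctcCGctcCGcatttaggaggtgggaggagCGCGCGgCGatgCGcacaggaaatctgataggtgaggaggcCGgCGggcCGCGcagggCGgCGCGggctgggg
TRAM2-AS1: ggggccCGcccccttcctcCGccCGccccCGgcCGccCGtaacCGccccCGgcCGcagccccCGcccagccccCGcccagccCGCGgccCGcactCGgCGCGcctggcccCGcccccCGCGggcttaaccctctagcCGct
DDX11-AS1: cccCGcCGctgc

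The first holds 15 CG in 117 bases, the second 21 in 141 and the third 2 in 12. CG-rich starts were common among these RNAs. RefSeq promoter windows of 300 bases, 250 before the start and 50 after, matched 185 of the 220 antisense RNAs and held a median of 23 CG. Over all 27305 promoters in that table the median was 14, and for 157 matched partners it was 27. Antisense RNAs head to head with the partner had a median of 25.5 and those inside the partner or tail to tail 23.5.

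Most antisense RNAs differed little between shRBMS1 and shControl, though fewer of them lay near 0 than of genes at large. Their median was 0.06 with quartiles of −0.29 and 0.40, and 149 (67.7%) lay within 0.5 of 0. That share was 76.9% over all genes and 72.5% over other non-coding genes. The median over all 12582 genes was 0.01 with quartiles of −0.25 and 0.23, and over the 875 other non-coding genes it was 0.10 with quartiles of −0.19 and 0.36. At a log2 value of 1 or more stood 15 antisense RNAs (6.82%), against 3.95% of all genes and 6.86% of other non-coding genes. Those lower by at least 1 numbered 7 (3.18%), against 3.96% of all genes and 3.89% of other non-coding genes. Both shares lay near those of the other non-coding genes, so neither count sets the antisense RNAs apart. Of the antisense RNAs, 186 rest on 1 row, and among these 12 were higher and 7 lower by at least 1 (6.45% and 3.76%). Other non-coding genes with 1 row had nearly the same shares, 7.07% and 3.97%, and genes of any kind with 1 row had 3.31% and 3.23%. At a threshold of 0.58, 33 antisense RNAs were higher (15%), against 8.35% of all genes and 14.3% of other non-coding genes, and 24 were lower (10.9%), against 10.5% and 8.69%. At a threshold of 2, 4 were higher (1.82%), against 1.08% and 0.914%, and 1 was lower (0.455%), against 1.27% and 0.8%. Just inside the limit of 1 were C10orf95-AS1 and COL4A2-AS1, both at a gene value of 1.04, and just outside it PLBD1-AS1 at 0.999. In the authors' deposited table COL4A2-AS1 has 1 row, while C10orf95-AS1 has rows at 0.40 and 1.67. At the lower limit GAS5-AS1 lay inside at −1.11 in the authors' deposited table and SERTAD4-AS1 outside at −0.91.

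**Figure D1:**
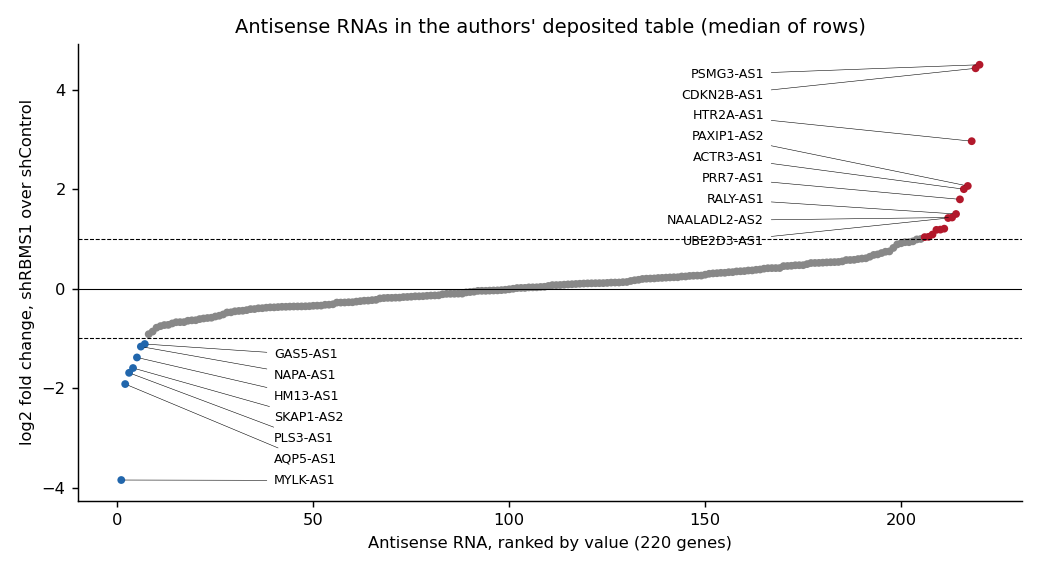
Values of the 220 antisense RNAs, ranked from lowest to highest on the horizontal axis, with the log2 fold change of shRBMS1 over shControl on the vertical axis (median of each gene's rows). Dashed lines mark −1 and 1. The 15 RNAs at or above 1 are red and the 7 at or below −1 are blue, and the highest 9 and lowest 7 are named. Most points form a shallow slope around 0.

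The highest antisense RNA was PSMG3-AS1, on chromosome 7 at 1570073 to 1589626, plus strand. Its single row was at 4.50 in the authors' deposited table, while PSMG3, which encodes a chaperone of proteasome assembly and starts 41 bases away in the other direction, was at 0.06. The rows of PSMG3 were at −0.13 and 0.25 by the authors' deposited table, so the antisense RNA stood far above both. Without levels, a fold this large cannot be told apart from a level near 0 in the control libraries.

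CDKN2B-AS1, also called ANRIL, is a long antisense RNA of the INK4 tumour suppressor locus, known to bind Polycomb proteins. It lies on chromosome 9 at 21994791 to 22128142, with CDKN2B, a cyclin-dependent kinase inhibitor, inside its span on the other strand. Its gene value of 4.43 joins rows far apart in the authors' deposited table, 8.20 for NR_047542 and 0.66 for NR_047532, and CDKN2B was at 0.76. The row at 8.20 is linked in GENCODE to a transcript of 5 exons and 689 bases and the other to one of 14 exons and 2175 bases. The longer form therefore stood near the partner while the shorter one set the gene value apart from it. The row at 8.20 was the only one of the 264 antisense rows beyond 5 in either direction (0.379%), against 2.02% of all rows. Without levels, it too cannot be told apart from a level near 0 in the control libraries.

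HTR2A-AS1, antisense to a serotonin receptor gene that is not in the table, was at 2.96 in the authors' deposited table. PAXIP1-AS2 was at 2.06 there while PAXIP1, which encodes a DNA damage response protein, was at −0.05 in the authors' deposited table. For ACTR3-AS1 the authors' deposited table had 2.00, and for its partner ACTR3, a subunit of the actin-nucleating Arp2/3 complex, rows at 0.04 and 0.80. PRR7-AS1 was at 1.79, with rows of PRR7 at −0.68 and 1.77 by the authors' deposited table. In each of these pairs the antisense RNA stood above its partner's gene value, which follows largely from naming the highest antisense RNAs. In the authors' deposited table RALY-AS1 stood at 283% of control, while its partner RALY, a nuclear ribonucleoprotein, was at −0.44 on the log2 scale. The next were NAALADL2-AS2 at 1.43, UBE2D3-AS1 at 1.42 and STAG2-AS1 at 1.21 by the authors' deposited table. The ubiquitin-conjugating enzyme gene UBE2D3 had a gene value of 0.14 and the cohesin gene STAG2 one of −0.12. Their rows ran from −0.03 to 1.64 and from −0.85 to 1.13 in the authors' deposited table. Further RNAs at or above 1 were KCNQ1-AS1, ZSCAN16-AS1, COL4A2-AS1 and C10orf95-AS1, between 1.04 and 1.19.

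At the other end MYLK-AS1 was lowest, with a value of −3.84 in the authors' deposited table, which is 6.97% of control. It lies on chromosome 3 at 123585513 to 123630821, overlapping tail to tail with MYLK, the gene of myosin light chain kinase, with which it shares 133 exonic bases. The rows of MYLK were at 0.30 and 1.23 by the authors' deposited table, so antisense RNA and partner lay on opposite sides of 0. Without levels, the fold of MYLK-AS1 cannot be told apart from a level near 0 in the knockdown library. AQP5-AS1 followed at −1.92 in the authors' deposited table, its partner, an aquaporin gene, not being in the table. PLS3-AS1 was at −1.69 and PLS3, which encodes an actin-bundling plastin, at −0.83, with rows at −1.36 and −0.30 by the authors' deposited table. This was the lowest pair in which both members lay below 0 and head to head. SKAP1-AS2, inside the T cell adaptor gene SKAP1, was at −1.59 by the authors' deposited table, against −0.26 for SKAP1. HM13-AS1 was at −1.38 and NAPA-AS1 at −1.16 by the authors' deposited table. Their partners HM13, a signal peptide peptidase, and NAPA, a SNAP protein of vesicle fusion, had gene values of −0.25 and −0.20 with rows from −7.60 to 1.28 and from −1.71 to 0.80 in the authors' deposited table. GAS5-AS1, which shares 41 exonic bases with the far end of GAS5, a small nucleolar RNA host gene, was at −1.11 while GAS5 was at 0.50 in the authors' deposited table. SERTAD4-AS1 stood at −0.91 and SH3BP5-AS1 at −0.78 in the authors' deposited table. Between them was SLC16A1-AS1 with a gene value of −0.86, the median of rows at −1.92 and 0.20.

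Antisense RNA and partner shared the sign of their values in 101 of 176 pairs (57.4%). Both were above 0 in 58 pairs and both below in 43. The antisense RNA was above and the partner below in 39, and the reverse held in 36. Spearman's rho across the 176 pairs was 0.18, a description over pairs that share the same libraries, and among the 81 pairs in which both have 1 row it was 0.26. The median size of the difference within a pair was 0.41, 27 pairs were at least 1 apart, and 29 lay within 0.1 of each other. In 0 pairs were both members at or beyond 1 in either direction. Few members reached 1 at all, 11 antisense RNAs higher and 6 lower among the 176 and fewer partners. A count of 0 therefore does not set the pairs apart. It also rests on the median of rows: beside HM13-AS1 at −1.38, HM13 has rows from −7.60 to 1.28 in the authors' deposited table. The partners had a median of 0.03 with quartiles of −0.27 and 0.31, with 7 of 176 higher by at least 1 (3.98%) and 3 lower (1.70%), beside the 3.95% and 3.96% of all genes.

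**Figure D2:**
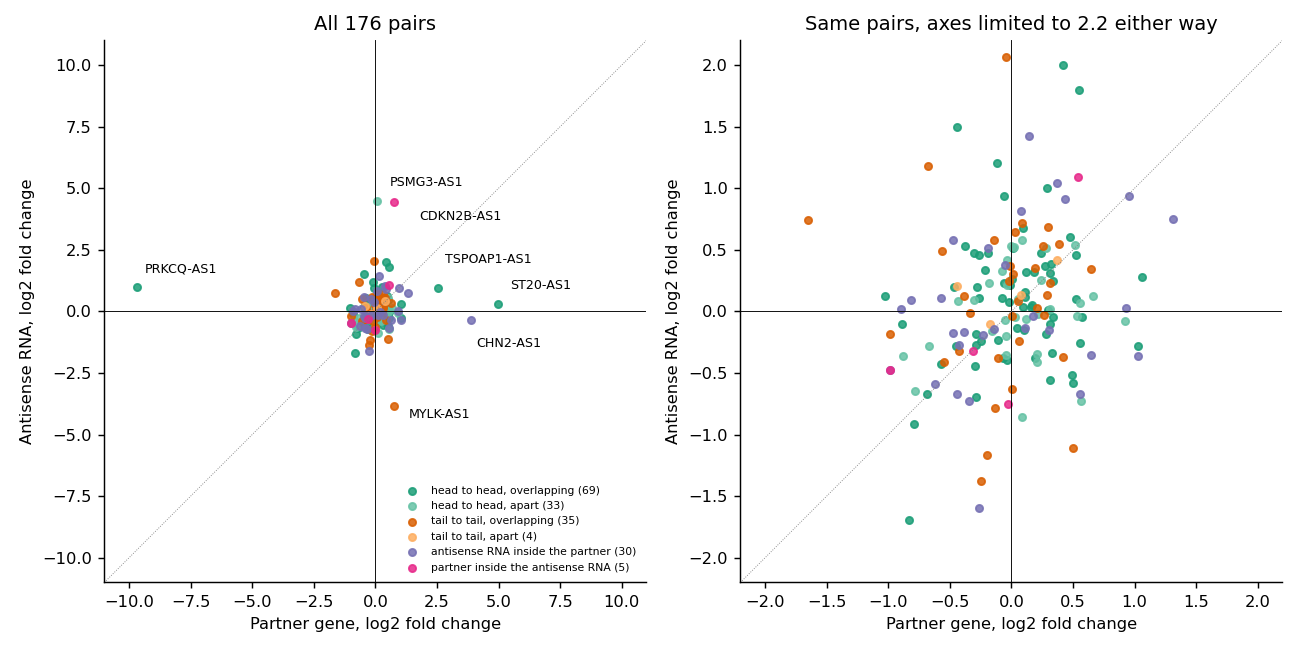
Each point is 1 of the 176 pairs, with the partner gene's log2 fold change on the horizontal axis and the antisense RNA's on the vertical axis, coloured by annotated position. The left panel shows all pairs, the right panel those that fall within narrower axes, and the dotted line marks equal values. The points form a cloud around 0 with little slope (rho 0.18). By the median of rows, in each pair with a member at or beyond 1 the other lies within 1 of 0, where few members reach 1.

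The 10 partners at or beyond 1 stood opposite antisense RNAs between −0.36 and 0.99. The lowest was PRKCQ, a protein kinase C isoform of T cells, at −9.68 in its only row of the authors' deposited table. PRKCQ-AS1, whose start lies 221 bases from that of PRKCQ, was at 0.99 by the authors' deposited table. The gap of 10.67 was the widest of the 176 pairs, and without levels it cannot be told apart from a level near 0 in the knockdown library. ZFPM2, a cofactor of GATA factors, was at −1.65 and ZFPM2-AS1 at 0.74 in the authors' deposited table. RAB11B, a small GTPase of recycling endosomes, was at −1.03 and RAB11B-AS1 at 0.12 there, in a pair sharing 258 exonic bases by GENCODE. Next lowest in the authors' deposited table were the homeobox gene DLX6 at −0.99, with DLX6-AS1 at −0.47, and the focal adhesion gene PXN at −0.99, with PXN-AS1 at −0.18.

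Highest among partners was ST20, at 4.98, a median of non-coding rows at 9.84 and 0.11 by the authors' deposited table, while ST20-AS1 was at 0.31. CHN2, which encodes a Rac GTPase-activating protein, was at 3.89 in the authors' deposited table and CHN2-AS1, inside it, at −0.36. TSPOAP1 was at 2.54 and TSPOAP1-AS1 at 0.95 in the authors' deposited table. SLC9A3, the sodium-proton exchanger NHE3 of the gut brush border, was at 1.31 and SLC9A3-AS1 at 0.75 by the authors' deposited table. These last pairs were higher on both strands, with the partner above the antisense RNA. Further partners above 1, ATP6V0E2 and PRKAR1B, were both at 1.02, each with rows on both sides of 0 in the authors' deposited table. Their antisense RNAs were at −0.28 and −0.36 there, so 3 of the 7 high partners stood opposite an antisense RNA below 0.

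Some pairs lay close together. TRAM2-AS1 and TRAM2, a translocon-associated gene, were both at −0.16 by the authors' deposited table, and the stretch between their starts is the second one printed above. COA6-AS1 and COA6, an assembly factor of cytochrome oxidase, both had a gene value of 0.31 and share 138 exonic bases. Rows were at 0.02 and 0.61 for COA6-AS1 and at 0.24 and 0.39 for COA6 in the authors' deposited table. PCBP1-AS1 and PCBP1, a poly(C)-binding protein gene, were at −0.67 and −0.69 by the authors' deposited table. B3GALT5-AS1 and the galactosyltransferase gene B3GALT5 were at −0.64 and −0.78 by the authors' deposited table, and SERTAD4 at −0.79 lay near SERTAD4-AS1. In contrast DDX11-AS1 was at −0.73 and the DNA helicase gene DDX11 at 0.57 in the authors' deposited table, with starts 13 bases apart. A short distance between starts thus came with both kinds of pair.

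By annotated position, 102 pairs were head to head, 69 of them with overlapping spans and 33 apart. Another 35 overlapped tail to tail, 4 lay tail to tail but apart, 30 antisense RNAs lay inside the partner and 5 partners lay inside the antisense RNA. Signs matched in 39 of 69 overlapping head-to-head pairs (56.5%), 17 of 33 head-to-head pairs apart (51.5%), 20 of 35 overlapping tail-to-tail pairs (57.1%) and 17 of 30 antisense RNAs inside the partner (56.7%). Where the partner lay inside, as for CDKN2B, signs matched in 5 of 5. Spearman's rho was 0.15 in the first of these classes, 0.11 in the second, −0.04 in the third and 0.21 in the fourth. For the 57 head-to-head pairs with starts within 500 bases signs matched in 31 (54.4%) and rho was 0.05. The median of antisense RNA minus partner was 0.02 in both head-to-head classes, 0.14 in overlapping tail-to-tail pairs and 0.04 for antisense RNAs inside the partner. Each class of at least 30 pairs held differences on both sides of 0. The RNAs lower by at least 1 that have a measured partner were 4 overlapping tail to tail, 1 overlapping head to head and 1 inside the partner. The 11 higher ones were 4 overlapping head to head, 1 head to head but apart, 2 overlapping tail to tail, 2 inside the partner and 2 with the partner inside.

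**Figure D3:**
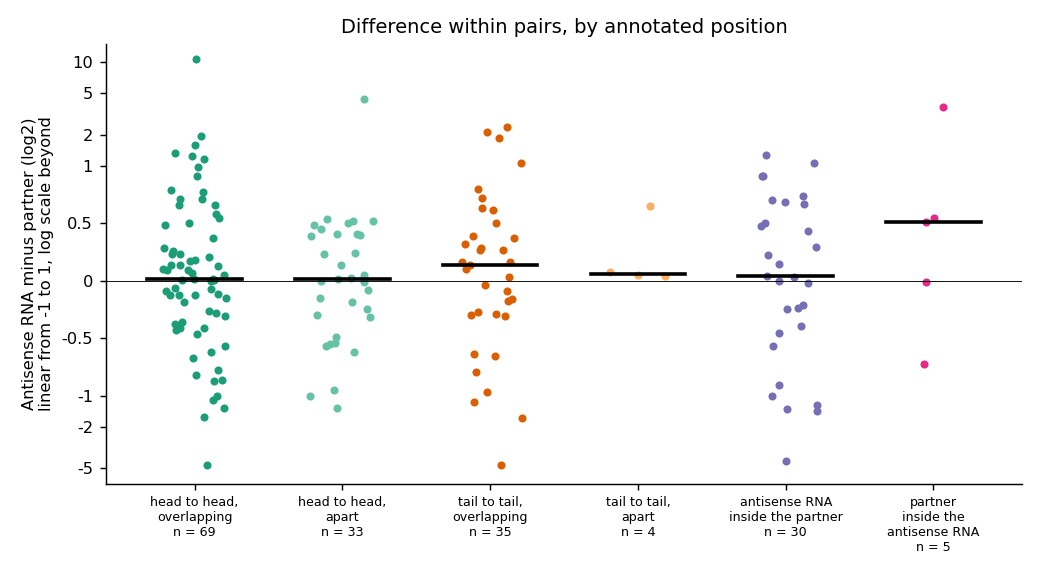
Antisense RNA value minus partner value (log2) for each pair, on a scale that is linear from −1 to 1 and logarithmic beyond, grouped by annotated position. Points are pairs, black bars are medians, and n gives the pairs in each class. All classes with at least 30 pairs have medians between 0.02 and 0.14 and spread widely on both sides of 0.

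Exon positions were known for both members in 151 of 176 pairs, from GENCODE 29 transcripts linked to the RefSeq rows. Exons overlapped in 75 of them, by a median of 193 bases and at most 1975, in SH3BP5-AS1. Among overlapping pairs signs matched in 39 of 75 (52.0%) and rho was 0.10. Among pairs without shared exonic bases signs matched in 47 of 76 (61.8%) and rho was 0.20. The sources used here do not say whether reads were counted by strand, so in the 75 overlapping pairs reads from one strand and the other cannot be told apart. RNAs at or beyond 1 with shared exonic bases include MYLK-AS1, PAXIP1-AS2 with 334 bases, UBE2D3-AS1 with 105, COL4A2-AS1 with 81, NAPA-AS1, GAS5-AS1 and STAG2-AS1. PSMG3-AS1, CDKN2B-AS1, RALY-AS1, PLS3-AS1, SKAP1-AS2 and HM13-AS1 share 0 exonic bases with the partner's linked transcripts.

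Of the 34 antisense RNAs with several rows, 13 (38.2%) had rows more than 1 apart and 16 had rows on both sides of 0. The median range was 0.73. After CDKN2B-AS1 the widest was WARS2-AS1, opposite a mitochondrial tryptophanyl-tRNA synthetase gene, with rows at −3.05, 0.64, 0.71 and 2.66 in the authors' deposited table. WARS2 was at 0.09 in the authors' deposited table. HOXB-AS3, a HOXB cluster RNA known to encode a small peptide, had rows at −2.34, −1.91, −0.17, 0.31 and 0.37 in the authors' deposited table. Thus 2 of its forms were below −1 while the gene value was −0.17. LYRM4-AS1 ran from −0.87 to 1.36 and HLA-F-AS1, opposite an MHC class I gene, from −0.40 to 1.77 in the authors' deposited table. Of the genes with several rows in the whole table, 49.3% had rows more than 1 apart.

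**Figure D4:**
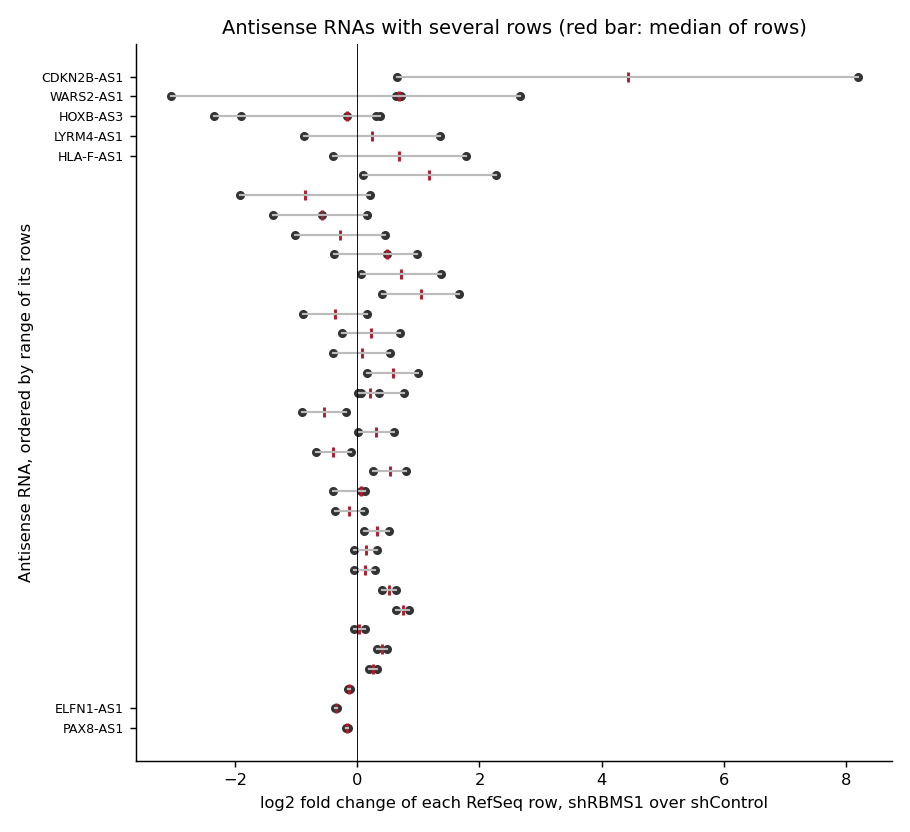
The 34 antisense RNAs with several RefSeq rows, ordered by the range of their rows, with the log2 fold change of each row on the horizontal axis (black points) and the median of rows as a red bar; the 5 widest and the 2 narrowest are named. CDKN2B-AS1, WARS2-AS1 and HOXB-AS3 have the widest ranges, and PAX8-AS1 and ELFN1-AS1 the narrowest.

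Identical values recurred across genes. Of the 264 antisense rows, 20 (7.58%) had exactly the value of a row of another gene. The shares were 4.66% of the 1846 other non-coding rows, unnamed ones included, and 1.59% of coding rows. LAMTOR5-AS1 and TENM3-AS1 were both at −0.27 in the authors' deposited table, with the same digits, as were CCND2-AS1 and PCNA-AS1 at 0.93. AQP5-AS1, HTR2A-AS1 and SERTAD4-AS1 also shared their value with a row of another gene. Counts and rho with such rows left out are given at the end, and why values recur was not tested.

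The motif ATATA, on the sense strand of each antisense transcript, was counted in the linked GENCODE sequences of 225 of the 264 rows, which belong to 191 genes. It occurred in 109 rows (48.4%), against 48.6% of 1467 other non-coding rows, with 1.05 and 1.04 sites per kilobase. Unlike the other non-coding genes above, these rows include non-coding transcripts of coding genes. Rows with the motif had a median of 0.11 and rows without it −0.01, while among other non-coding rows these medians were 0.13 and 0.14. Rows with it were longer, at a median of 2069 bases against 824. Per gene the medians were 0.11 for 97 with ATATA and −0.06 for 94 without. Of the 6 RNAs lower by at least 1 that have a sequence, 2 hold it, PLS3-AS1 and SKAP1-AS2, as do 6 of the 12 such higher ones and 89 of 173 between. MYLK-AS1 and PSMG3-AS1 hold 0 sites. The richest were LPP-AS2 with 37 sites and DLX6-AS1 with 32, at 0.53 and −0.47 by the authors' deposited table. OIP5-AS1, the conserved RNA called cyrano, which is known to bind the RNA-binding protein HuR and microRNA miR-7, followed with 27 sites and was at 0.30 by the authors' deposited table. The lines below give 30 bases around a site in RNAs at either end and in OIP5-AS1, 5′ to 3′ with the motif in capitals and T for U (GRCh38, GENCODE 29). The PLS3-AS1 window holds 2 overlapping sites. They lie at chrX:115518520-115518549 (minus strand), chr17:48294467-48294496 (plus), chr4:102843767-102843796 (plus) and chr15:41299029-41299058 (plus), in the order shown.
PLS3-AS1: cctgtgatggacATATATAtttccccccag
SKAP1-AS2: agagacataagcATATAggagaaagggtcc
UBE2D3-AS1: cagtttcatttaATATAatttcattactct
OIP5-AS1: gtgtttcacattATATAgttacttttttta

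Low and high RNAs both carry the motif, and the linked transcripts of CDKN2B-AS1 hold 4 sites for the row at 0.66 and 1 site for the row at 8.20 in the authors' deposited table. A match is a string of letters and not a measured binding site. The median was −0.01 in 116 rows with no site, 0.03 in 44 with 1, 0.01 in 23 with 2, 0.13 in 32 with 3 to 5 and 0.35 in 10 with 6 or more, where the last group is small and its transcripts the longest. Across the 225 rows Spearman's rho of the value was 0.08 with the number of sites, −0.10 with GC content and −0.01 with length.

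Among 66 antisense RNAs listed for published roles, 31 were in the table, with a median of 0.07. Of these 3 were higher by at least 1, PSMG3-AS1, CDKN2B-AS1 and PAXIP1-AS2, and 0 were lower by at least 1. That is 9.68% higher, beside 6.82% of all antisense RNAs and 3.95% of all genes, and the list is short. The share lower was 0%, beside 3.18% of all antisense RNAs and 3.96% of all genes. PRKCQ-AS1 and PCNA-AS1, the latter inside the gene of the replication clamp, followed at 0.99 and 0.93 by the authors' deposited table. PCNA had a gene value of 0.95, the median of rows at 0.15 and 1.76 there. MCM3AP-AS1 was at 0.58 and PSMA3-AS1 at 0.35 in the authors' deposited table. Lower were VPS9D1-AS1, known from MYC-driven colon cancer cells, at −0.67, HOXB-AS1 at −0.45, ASB16-AS1 at −0.39 and LEF1-AS1 at −0.38 by the authors' deposited table. The partner VPS9D1 was at 0.56 and the Wnt effector LEF1 at 0.19 in the authors' deposited table. FGD5-AS1 and LOXL1-AS1 were at 0.21 and 0.32, and ZEB1-AS1, which neighbours the mesenchymal regulator ZEB1, at 0.10 in the authors' deposited table. ZEB1 itself was at 0.52 in the authors' deposited table.

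Genes that process or remove antisense RNA lay mostly near 0. A list of 52 genes covered the exosome, its adaptors, the cap-binding complex, the Integrator and transcription termination, with further decay enzymes such as XRN1 and DXO. All 52 genes were in the table. Their median was 0.05, and 0 were higher and 0 lower by at least 1, where all genes have 3.95% and 3.96%. Highest were DIS3 and EXOSC3, a nuclease and a core subunit of the exosome, at 0.805 and 0.75 by the authors' deposited table. Both are medians of rows apart, 0.26 and 1.35 for DIS3 and 0.06 and 1.45 for EXOSC3 in the authors' deposited table. Lowest were SRRT, a cap-binding partner, at −0.75 from rows between −2.54 and 1.30, and ZFC3H1, which links exosome and polyadenylated nuclear RNA, at −0.68 in the authors' deposited table. Of 33 genes that bind, edit, cut or sense double-stranded RNA and of nonsense-mediated decay, 0 were higher and 1 lower by at least 1 (3.03%, against 3.96% of all genes), with a median of −0.10. By the authors' deposited table the RNA-DNA hybrid nuclease RNASEH1 had a gene value of −0.67, from rows at −1.50 and 0.16. The highest were the kinase EIF2AK2 at 0.42 and the oligoadenylate synthetase OAS1 at 0.40 by the authors' deposited table. The editing enzyme ADAR was at 0.06 and DROSHA at −0.40 in the authors' deposited table. DICER1, at −0.25 from rows between −7.72 and 1.28, is itself a partner gene and lay beside DICER1-AS1 at −0.24 in the authors' deposited table.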

How the data were processed

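The deposited values are the authors' own log2 fold changes, 1 for each RefSeq transcript, comparing shRBMS1 with shControl. STAR 2.5, Cufflinks, Cuffdiff and hg38 are named, without roles or settings, in the submitters' processing notes; the sources used here give neither filters nor the use of strand. The header gives neither base nor direction. Base 2 was read from spacing: a distance of 1 (tolerance 1.5e-05) separated 20 rows from values found 3 or more times, while distances of ln 2 and log10 of 2 did so for 4 and 5 rows. The direction was read from RBMS1. If it were the other way, every sign would turn.

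Symbols and positions came from a RefSeq table of GRCh38.p14, which matched 19818 of 20104 rows (98.6%); of the 286 unmatched, 160 were non-coding. Rows were joined to GENCODE 29 exons and sequences through its RefSeq links; 7 linked transcripts serve 2 or more antisense rows, so a row's own exons can differ. Head to head means that the 5′ ends of the pair overlap or lie nearest each other, and tail to tail that the 3′ ends do.

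With 1 knockdown library no test was made, and genes at or beyond 1 were counted. The rule named the highest and lowest 10 antisense RNAs, the extreme 5 partners and pairs in each direction, the widest 5 sets of rows, measured RNAs of a list with published roles, and the extremes of each gene list. Some genes and sequences that the rule names are not reported here, though they stay in the counts. Members and lists were chosen with earlier results of these data known. Other settings were the mean or the row closest to 0 per gene, genes with 1 row, centring, thresholds of 0.58 and 2, rows beyond 5 left out, and coding rows alone for partners. The code was tested on simulated data. Python 3.11.15, numpy 2.4.6, pandas 2.3.3 and matplotlib 3.10.9 were used.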

Additional observations from a re-analysis of the deposited data

How the results depend on the processing

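The counts depend on the threshold. At 0.58, 33 antisense RNAs were higher and 24 lower, and 15 partners were higher (8.52%, all genes 8.35%) and 17 lower (9.66%, all genes 10.5%). At 2 these numbers were 4, 1, 3 and 1, the partners' being 1.7% and 0.568% against 1.08% and 1.27% of all genes. Partners higher by at least 1 fell from 7 to 3 of 176 with the row closest to 0. Among genes with 1 row they were 3 of 94, where 3.31% of all such genes were higher. Partners lower by at least 1 rose from 3 to 8 of 176 with the mean of rows, so their low number depends on how rows are joined. Shares over all genes with the mean or the row closest to 0 were not worked out. Matching signs numbered 46 among the 81 pairs with 1 row each (56.8%), where fewer pairs entered, and 90 of 176 (51.1%) with the row closest to 0. Of 87 values under other settings 75 stayed within 1.5 times the count, the 95% binomial interval of the median, or 0.1 in rho. Small medians changed sign: that of partners was −0.01 with the row closest to 0 and −0.02 among genes with 1 row, and antisense minus partner in overlapping tail-to-tail pairs was −0.03 with the row closest to 0. Leaving out rows whose value recurs in another gene, a setting chosen after seeing the data, gave rho 0.14. It left 14 higher and 6 lower of 202 antisense RNAs, and the share over all genes was not worked out. No paired analysis was possible because the deposited table holds 1 comparison and no values per library, and for the same reason leaving out a library could not be run. Depth is unknown, so it cannot be said which values rest on few reads.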
